A study of Mus musculus with 9 samples.

Results

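The genes described here are 43 genes of fatty acid uptake, synthesis, storage and oxidation, out of 46078 genes in the table, chosen by name for their known function. By step, 12 act in uptake and activation, 12 in synthesis, 8 in storage and lipolysis and 11 in oxidation. RNA was sequenced from 3 macrophage cultures, all from the inbred mouse strain C57BL/6J, with 3 libraries each. For FLM_G, cells from fetal livers of gestational day 15 to 19 were expanded in high-glucose medium carrying 10% fetal bovine serum and 30 ng/ml of recombinant granulocyte-macrophage colony-stimulating factor (GM-CSF). For FLM_M, the same kind of fetal liver cells received 20% fetal bovine serum and 30% L-cell supernatant, which supplies M-CSF (macrophage colony-stimulating factor). BMM were macrophages from bone marrow, and the labels do not describe their medium. Every culture was at least 8 weeks old, and 250000 cells per well were plated in triplicate on the day before RNA was taken. Growth factor, serum level and medium changed together between FLM_G and FLM_M and cannot be told apart, and tissue and medium cannot be told apart in the comparisons with BMM. The labels do not say whether the wells of a culture came from separate animals, so the p-values reflect only how far these libraries scatter, and that scatter may be technical.

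Fatty acids reach a macrophage from lipoproteins cut by lipoprotein lipase, from engulfed cells and from synthesis out of citrate. Inside the cell they are carried by small binding proteins, joined to coenzyme A, and then built into membranes, stored as triglyceride in droplets or burned in mitochondria. GM-CSF is known to raise the nuclear receptor PPARγ in alveolar macrophages, which clear the lipid-rich surfactant of the lung, and SREBP and LXR factors are known to drive lipid synthesis genes.

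Levels are FPKM, which count fragments per unit of transcript length and library size and so allow genes of different length to be compared, scaled here between libraries. The libraries held about 28550000 to 35680000 reads, estimated from the smallest steps of the FPKM. Fold changes are log2 differences of (scaled FPKM + 1), which understates changes of genes with low levels, and are given with their standard error (SE) from limma; a gene was called higher or lower at a Benjamini-Hochberg adjusted p under 0.05 over 11952 genes tested. All 10 macrophage markers examined were above 0 in every library, but at unequal levels. Their sum was 29198 to 29351 scaled FPKM in FLM_G, 6965 to 7139 in FLM_M and 8746 to 9175 in BMM, mostly lysozyme (Lyz2). Tyrobp and Mertk were likewise highest in FLM_G, and Ptprc by its mean. Mertk was at 62.2 to 65.2 in FLM_G, 9.74 to 11.2 in FLM_M and 8.69 to 9.47 in BMM. Csf1r, Adgre1, Itgam, Fcgr1 and Cd14 were instead lowest in FLM_G, and Cd68 was highest in FLM_M. Csf1r was at 116 to 124 in FLM_G, 409 to 464 in FLM_M and 360.2 to 375 in BMM. The 8 adipocyte markers summed to 0.559 to 1.00 scaled FPKM in FLM_G, 0 in FLM_M and at most 0.00910 in BMM, with Adipoq, Lep, Cidea, Cfd and Adrb3 listed at 0 in all 9 libraries. Of the 10 hepatocyte markers, Alb, Apoa1, Ttr, Serpina1a, Fgb and Cps1 were listed at 0 throughout, and the list's sum of 121 to 135 in FLM_G, 30.8 to 39.0 in FLM_M and 7.51 to 8.72 in BMM was mostly Trf. The 8 neutrophil markers summed to 49.7 to 56.7 in FLM_G, 9.51 to 12.3 in FLM_M and 2.65 to 3.52 in BMM, mostly S100a8, with Ly6g, Elane and Camp listed at 0 in all libraries. The part of all these markers in the results was not tested. The female-specific Xist was at 41.3 to 54.7 scaled FPKM in FLM_G and 67.2 to 74.3 in FLM_M, against at most 0.00444 in BMM, and the Y-linked Ddx3y at 8.47 to 10.4 in BMM, against at most 0.0165 in both fetal liver cultures. Sex therefore cannot be told apart from culture in the comparisons with BMM. In bulk RNA, fewer cells of a type and less RNA per cell cannot be told apart.

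FLM_G differed most. Against BMM, 29 of the 41 members tested were higher in FLM_G and 6 were lower (limma), where 33.8% of all genes tested were called higher and 34.1% lower; 14 were at least 2-fold higher and 3 at least 2-fold lower, against 9.84% and 8.91% of all genes. Against FLM_M, 34 members were higher in FLM_G and 5 lower, beside 35.5% and 35.1% of all genes, and 17 were at least 2-fold higher and 2 at least 2-fold lower, beside 11.3% and 10.2%. Both sets of counts hold Fabp1, Mgll, Ppargc1b and Scd1 as higher, which passed the filter for testing only through FLM_G. Fabp1, Mgll and Scd1 are also among those at least 2-fold higher. Folds in these counts are of scaled FPKM + 1. FLM_M against BMM gave 7 higher and 14 lower members, beside 22.7% and 21.9% of all genes, with 3 at least 2-fold higher and 2 at least 2-fold lower, beside 3.74% and 3.29%. The median log2 fold change of the 41 members was 0.67 for FLM_G over BMM, 0.83 for FLM_G over FLM_M and -0.11 for FLM_M over BMM, while the median gene stood at -0.00, 0.00 and -0.00. The medians of the members, too, hold Fabp1, Mgll, Ppargc1b and Scd1, which passed the filter only through FLM_G. The 3 comparisons share libraries pairwise and are not independent of each other. The plot of fold changes shows all 41 genes.

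Part of this balance depends on the scaling between libraries. The scaling factors were 0.801 to 0.821 for FLM_G, 1.13 to 1.14 for FLM_M and 1.08 to 1.09 for BMM, and without them the median gene lay at -0.34 for FLM_G over BMM, -0.39 for FLM_G over FLM_M and 0.05 for FLM_M over BMM. Without scaling, 21 members were called higher and 10 lower in FLM_G than in BMM, 24 higher and 8 lower than in FLM_M, and 9 higher and 11 lower in FLM_M than in BMM. Of the 11952 genes tested, 2081 were then called higher and 6775 lower in FLM_G than in BMM. These numbers were 2218 and 7075 for FLM_G over FLM_M, and 3323 and 2240 for FLM_M over BMM. Of all genes called, 23.5%, 23.9% and 59.7% were then on the higher side in these 3 comparisons. Acsl5 and Plin2, called higher in FLM_G than in FLM_M, were called lower without scaling. Members not called in the same comparison with scaling, but called lower in FLM_G without it, were Acsl5 (-0.42), Cpt1a (-0.33), Plin2 (-0.30) and Slc25a20 (-0.30) against BMM and Slc25a20 (-0.42) against FLM_M, as log2 fold changes. Among the other called members, Slc27a4, Srebf1, Elovl1 and Acadm (against BMM) and Slc27a4, Elovl1, Acadl and Etfdh (against FLM_M) changed sign without being called.

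Of the 2 members not tested, Cidec, a droplet-fusion protein, was at 0.575 to 0.901 scaled FPKM in FLM_G and listed at 0 in FLM_M and BMM, and Dgat2 stayed at 0.122 to 0.193 in FLM_G, 0.150 to 0.198 in FLM_M and 0.139 to 0.172 in BMM. Fabp1, Mgll, Ppargc1b and Scd1 passed the filter of 1 FPKM in 3 libraries only through FLM_G, so that their higher calls in FLM_G follow from the filter and are a description. Within a culture, the median coefficient of variation was 7.17% over the 41 members with a mean of at least 1 scaled FPKM in FLM_G, 5.42% over 34 in FLM_M and 4.18% over 36 in BMM. Mgll varied most in FLM_G (49.1%), and Acsl1 in FLM_M (37.1%) and BMM (45.2%).

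**Figure D1:**
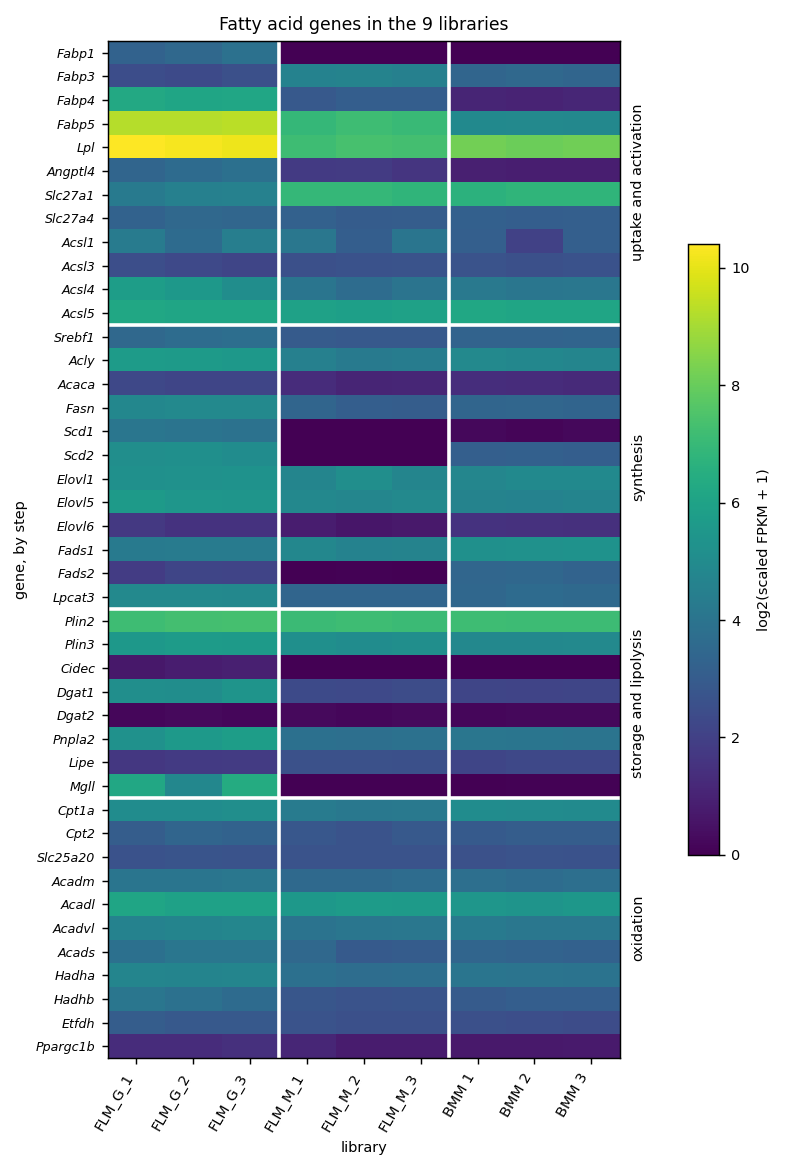
Levels of all 43 genes as log2(scaled FPKM + 1), shown by colour from 0 (dark) to over 10 (yellow). Columns are the 9 libraries, with FLM_G left, FLM_M in the middle and BMM right, and rows are genes grouped by step. Lpl and Fabp5 are brightest in FLM_G, while Scd2 and Fads2 are dark in FLM_M and Scd1 is dark in FLM_M and BMM.

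**Figure D2:**
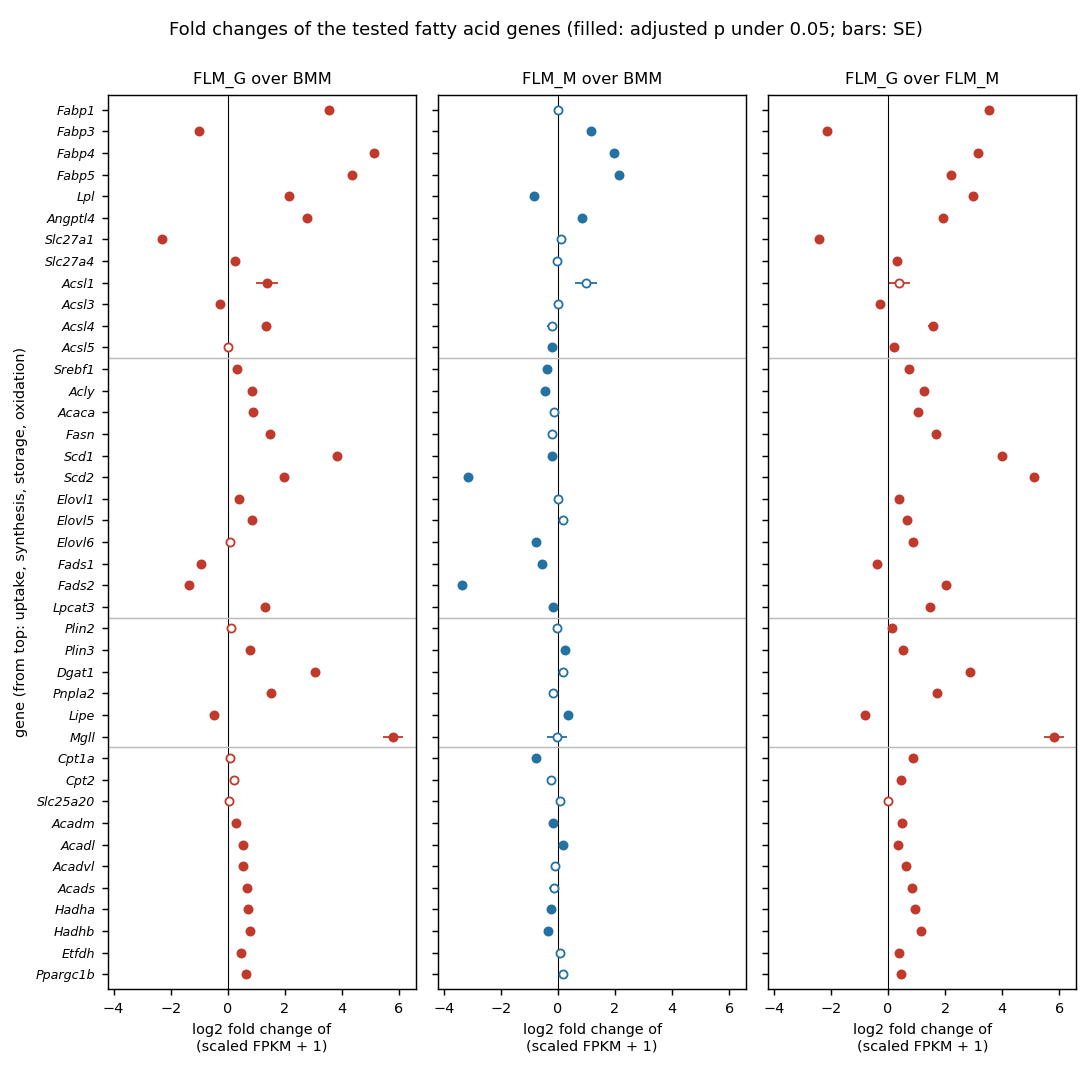
Log2 fold changes of (scaled FPKM + 1) of the 41 tested genes (x axis) for FLM_G over BMM, FLM_M over BMM and FLM_G over FLM_M, with bars for the SE and filled points for adjusted p under 0.05 (limma). Of the 41, 29 are filled to the right in FLM_G over BMM, 7 in FLM_M over BMM and 34 in FLM_G over FLM_M. Without scaling 21, 9 and 24 are. Fabp1, Mgll, Ppargc1b and Scd1 are among the higher ones in FLM_G but passed the filter only through FLM_G.

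Promoter sequence was taken from RefSeq (GRCm38.p6), which matched 33 of the 43 genes and gave 42 windows of the 250 bases before an annotated start. Fabp4, Fabp5, Lpl, Angptl4, Scd1, Scd2, Fads1, Dgat1, Dgat2 and Ppargc1b had no entry. The windows were searched on both strands for TCACNCCAC, a sterol regulatory element, for CCAAT, the NF-Y box, and for AGGTCA, the core of nuclear receptor sites, alone or as a direct repeat with 1 base between. The 5 sequences below belong to the genes that differed at least 2-fold in scaled FPKM + 1 between FLM_G and BMM. Only genes with a window free of annotated exon bases (GENCODE M21) were printed, 4 of them higher in FLM_G and 1, Slc27a1, lower. One window is printed for each gene. They are written 5′ to 3′ on the gene's strand, with matches in capitals.
Fasn, chr11:120824548-120824797, minus strand: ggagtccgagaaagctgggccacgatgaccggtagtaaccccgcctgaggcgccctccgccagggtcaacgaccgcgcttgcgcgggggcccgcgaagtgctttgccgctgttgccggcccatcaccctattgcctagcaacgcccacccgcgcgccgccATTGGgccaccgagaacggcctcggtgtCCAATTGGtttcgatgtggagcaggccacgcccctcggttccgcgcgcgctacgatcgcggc
Acsl1, start within the gene, chr8:46490716-46490965, plus strand: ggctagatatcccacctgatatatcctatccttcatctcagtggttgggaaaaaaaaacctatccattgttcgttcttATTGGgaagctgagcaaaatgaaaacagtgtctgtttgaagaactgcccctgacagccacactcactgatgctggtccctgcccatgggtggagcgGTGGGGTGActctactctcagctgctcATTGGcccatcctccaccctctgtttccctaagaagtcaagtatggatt
Acsl4, chrX:142390536-142390785, minus strand: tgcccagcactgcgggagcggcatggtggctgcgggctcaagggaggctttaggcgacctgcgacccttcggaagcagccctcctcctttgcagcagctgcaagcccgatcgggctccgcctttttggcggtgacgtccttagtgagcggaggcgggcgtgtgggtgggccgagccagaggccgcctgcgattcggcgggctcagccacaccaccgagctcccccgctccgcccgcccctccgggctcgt
Pnpla2, chr7:141454938-141455187, plus strand: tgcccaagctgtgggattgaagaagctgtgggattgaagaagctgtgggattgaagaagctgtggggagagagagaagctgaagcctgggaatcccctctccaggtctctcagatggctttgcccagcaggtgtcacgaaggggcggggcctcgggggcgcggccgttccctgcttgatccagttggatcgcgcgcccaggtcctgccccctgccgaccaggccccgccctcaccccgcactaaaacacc
Slc27a1, chr8:71568621-71568870, plus strand: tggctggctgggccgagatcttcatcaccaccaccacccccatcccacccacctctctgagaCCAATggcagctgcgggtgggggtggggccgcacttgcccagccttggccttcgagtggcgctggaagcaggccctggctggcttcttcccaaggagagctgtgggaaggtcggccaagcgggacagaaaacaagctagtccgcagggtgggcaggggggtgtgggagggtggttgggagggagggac

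The Fasn window held 3 CCAAT matches, of which 2 on opposite strands overlapped in a single run of capitals, and the Acsl1 window held 2 CCAAT matches and the only TCACNCCAC match among the members, on its minus strand. The other Acsl1 window, at the annotated start of the gene, held 0 matches. The printed Slc27a1 window had 1 CCAAT match, as did 1 of its 2 further windows, while these letters were absent from the windows of Acsl4 and Pnpla2. Over all 42 member windows, CCAAT was found in 15, against 33.9% of the 32851 windows in the RefSeq table, AGGTCA in 8, against 14.0%, TCACNCCAC in 1, against 1.05%, and the direct repeat in 0, against 0.0335%. The 13 genes with CCAAT included Fasn and Lpcat3, which were higher in FLM_G, and Slc27a1, which was lower. A match describes letters and is not a binding site.

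Uptake and activation began with the largest levels among the members. Lpl, the secreted lipase that frees fatty acids from lipoproteins (ENSMUSG00000015568, chr8:68880491-68907448), had 1353, 1217 and 1130.0 scaled FPKM in FLM_G, 144, 165 and 156 in FLM_M and 287, 269.7 and 280.0 in BMM. No groups overlapped, and it was the highest member in each culture. The log2 fold change was 2.14 (SE 0.08; limma, adjusted p = 2.45e-08) for FLM_G over BMM, 2.98 (SE 0.08; adjusted p = 2.4e-09) for FLM_G over FLM_M and -0.85 (SE 0.08; adjusted p = 3.2e-05) for FLM_M over BMM. Angptl4, a secreted inhibitor of lipoprotein lipase, followed another order, with 9.65, 11.6 and 13.4 scaled FPKM in FLM_G, 2.37, 2.46 and 2.08 in FLM_M and 0.90, 0.81 and 0.82 in BMM. It was higher in FLM_G than in BMM by 2.76 on the log2 scale (SE 0.10; limma, adjusted p = 3.18e-08) and higher in FLM_M than in BMM by 0.84 (SE 0.10; adjusted p = 2.21e-04). As a ratio of levels within a library, Lpl was 84.4 to 140.1 times Angptl4 in FLM_G, 60.7 to 75.1 times in FLM_M and 319 to 343 times in BMM.

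The fatty acid binding proteins carry fatty acids through the cytoplasm, and the members of this family moved apart. Fabp5, the epidermal form (chr3:10012548-10016607), had 605, 604 and 634 scaled FPKM in FLM_G, 121, 145 and 131 in FLM_M and 29.8, 29.1 and 28.2 in BMM. Fabp4, the adipocyte and macrophage form on the same chromosome (chr3:10204088-10208576), had 77.5, 67.5 and 70.5 in FLM_G, 6.43, 7.69 and 7.60 in FLM_M and 1.08, 1.02 and 1.18 in BMM. For both genes FLM_G was highest, FLM_M lay between and BMM was lowest, with no overlap. FLM_M exceeded BMM by a log2 fold change of 2.15 for Fabp5 (SE 0.07; limma, adjusted p = 2.76e-08) and 1.97 for Fabp4 (SE 0.08; adjusted p = 1.33e-07), and FLM_G exceeded FLM_M by 2.21 (SE 0.07; adjusted p = 5.62e-09) and 3.15 (SE 0.08; adjusted p = 1.91e-09). With a pseudocount of 0.1 in place of 1, the log2 fold change of Fabp4 was 5.91 in place of 5.12 for FLM_G over BMM and 2.61 in place of 1.97 for FLM_M over BMM.

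Fabp3, the heart form (chr4:130308595-130315463), ran the other way, with 4.42, 4.01 and 4.84 scaled FPKM in FLM_G, 23.3, 24.1 and 21.9 in FLM_M and 9.56, 10.4 and 9.56 in BMM. FLM_M stood above both others and FLM_G below both, without overlap. Its log2 fold change was -1.0 for FLM_G over BMM (SE 0.07; limma, adjusted p = 2.08e-06), -2.15 for FLM_G over FLM_M (SE 0.07; adjusted p = 9.84e-09) and 1.15 for FLM_M over BMM (SE 0.07; adjusted p = 1.99e-06). Of the 100-base words in Fabp3 transcripts, 21.7% also occur in the pseudogene Fabp3-ps1, which was at 0.732 FPKM in FLM_G, 5.40 in FLM_M and 2.16 in BMM before scaling, so reads may have been divided between them. Fabp1, the liver form (chr6:71199827-71205023), had 8.68, 10.3 and 13.6 scaled FPKM in FLM_G and was listed at 0 in all 6 libraries of FLM_M and BMM. Of the hepatocyte markers, Trf was also highest in FLM_G, at 119 to 134 scaled FPKM in FLM_G, 27.0 to 35.0 in FLM_M and 4.51 to 5.27 in BMM, Afp was lowest there, at 0.790 to 1.13 in FLM_G, 1.94 to 2.57 in FLM_M and 1.59 to 1.92 in BMM, and Alb was listed at 0 in all 9 libraries; their part in the Fabp1 level was not tested.

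As a share of the summed level of these 4 genes, Fabp5 made up 87.6 ± 0.56% in FLM_G, 81.3 ± 0.90% in FLM_M and 72.6 ± 0.93% in BMM (SD, n = 3 each), as drawn in the plot of family shares. Fabp4 took 10.2 ± 0.78% in FLM_G, 4.45 ± 0.25% in FLM_M and 2.75 ± 0.26% in BMM. Fabp3 took 0.630 ± 0.043% in FLM_G, 14.2 ± 1.0% in FLM_M and 24.6 ± 0.99% in BMM. The sum itself was 701 ± 19 scaled FPKM in FLM_G, 163 ± 13 in FLM_M and 39.97 ± 0.91 in BMM. These shares do not depend on the scaling between libraries.

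**Figure D3:**
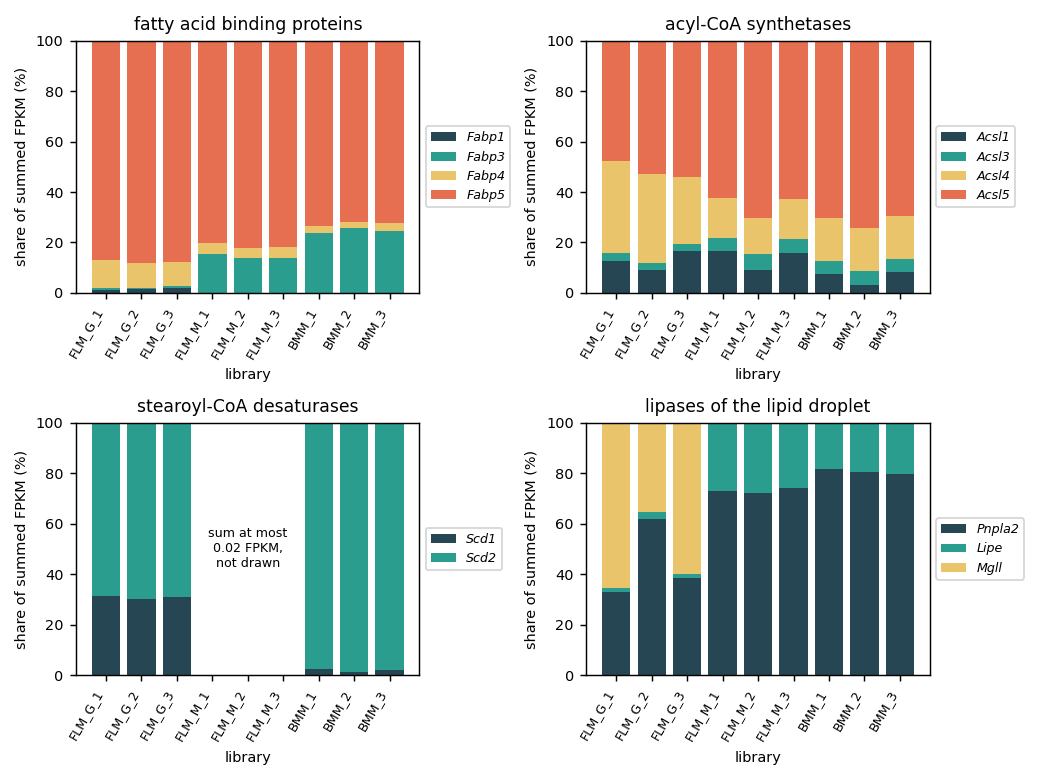
Share of each gene in the summed FPKM of its family (y axis, percent) in each of the 9 libraries (x axis), for 4 families, with FLM_G left, then FLM_M and BMM. Fabp5 is the largest share of its family everywhere, Scd1 is visible as a large share in FLM_G only, and Mgll takes 35.2% to 65.3% of the lipase sum in FLM_G and at most 0.263% elsewhere. Scd shares are not drawn for FLM_M, where the sum was at most 0.0206 scaled FPKM.

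Slc27a1, a fatty acid transport protein with acyl-CoA synthetase activity (chr8:71568882-71587302), was the member that fell furthest in FLM_G. It had 18.2, 22.2 and 22.6 scaled FPKM in FLM_G, 121, 119.6 and 112 in FLM_M and 102, 111 and 110.3 in BMM. The groups of FLM_M and BMM did not overlap, but their difference of 0.12 on the log2 scale did not pass (SE 0.08; limma, adjusted p = 0.27). FLM_G was lower than BMM by a log2 fold change of -2.31 (SE 0.08; adjusted p = 2.27e-08) and lower than FLM_M by -2.43 (SE 0.08; adjusted p = 1.41e-08). Its relative Slc27a4 averaged 9.63 scaled FPKM in FLM_G, 7.59 in FLM_M and 7.82 in BMM, and made up 31.5 ± 1.1% of the sum of the pair in FLM_G, 6.07 ± 0.38% in FLM_M and 6.77 ± 0.56% in BMM (SD, n = 3 each).

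Acyl-CoA synthetases activate fatty acids by joining them to coenzyme A. Acsl1 (chr8:46471037-46536051) had 19.1, 11.6 and 21.0 scaled FPKM in FLM_G, 16.4, 7.54 and 15.6 in FLM_M and 7.79, 2.98 and 7.92 in BMM. Replicate 2 was lowest in each culture, and the groups of FLM_M overlapped both others. The deposited counts of Acsl1, which are sparse and may hold reads of the opposite strand, were 21, 29 and 3 in FLM_G, 57, 20 and 47 in FLM_M and 3, 9 and 9 in BMM. Acsl1 was higher in FLM_G than in BMM by a log2 fold change of 1.38 (SE 0.39; limma, adjusted p = 0.0124). The difference of 0.99 between FLM_M and BMM did not pass (SE 0.39; adjusted p = 0.0702), and without FLM_M replicate 2 it was 1.32 and passed. Acsl4, which prefers arachidonic acid, averaged 44.6 ± 11 scaled FPKM in FLM_G, 14.2 ± 2.0 in FLM_M and 16.5 ± 0.78 in BMM (SD, n = 3 each), a log2 fold change of 1.35 for FLM_G over BMM (SE 0.17; adjusted p = 1.03e-04). Acsl5 was the highest of the 4 synthetases in all libraries, at 68.3 to 72.2 scaled FPKM in FLM_G, 58.0 to 61.4 in FLM_M and 67.5 to 72.6 in BMM, and Acsl3 lay between 3.49 and 5.35 in all. Acsl5 overlaps Zdhhc6 on the other strand, which was at 21.8 FPKM in FLM_G, 25.2 in FLM_M and 29.7 in BMM before scaling. Acsl4 made up 32.7 ± 5.4% of the summed synthetases in FLM_G, 15.3 ± 0.76% in FLM_M and 17.0 ± 0.14% in BMM.

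By count, 8 of the 12 uptake and activation genes were higher and 3 lower in FLM_G than in BMM, 8 higher and 3 lower in FLM_G than in FLM_M, and 4 higher and 2 lower in FLM_M than in BMM. Without scaling these were 7 and 4, 6 and 4, and 4 and 1. With scaling, 33.8% of all genes tested were higher and 34.1% lower in FLM_G than in BMM. They were 35.5% and 35.1% in FLM_G against FLM_M, and 22.7% and 21.9% in FLM_M against BMM. The counts of every step with scaling are to be read against these shares, and those of this step in FLM_M against BMM lie near them. Without scaling, 2081 of the 11952 genes tested were higher and 6775 lower in FLM_G than in BMM. These numbers were 2218 and 7075 for FLM_G over FLM_M, and 3323 and 2240 for FLM_M over BMM. The step counts without scaling are to be read against these numbers. The higher counts of FLM_G hold Fabp1 in uptake, Scd1 in synthesis, Mgll in storage and Ppargc1b in oxidation. Each of these genes passed the filter only through FLM_G. The summed level of the step was 2112 ± 109.6 scaled FPKM in FLM_G, 538 ± 15 in FLM_M and 533 ± 10.0 in BMM, of which Lpl and Fabp5 were the largest parts in FLM_G.

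Synthesis differed in both directions. In FLM_G, 9 of the 12 genes were higher than in BMM and 2 lower, and 11 were higher than in FLM_M and 1 lower; in FLM_M, 0 were higher than in BMM and 8 lower. Without scaling the counts were 7 and 2, 10 and 1, and 1 and 7. Srebf1, which encodes the transcription factor SREBP-1 of fatty acid synthesis (chr11:60199089-60222581), had 10.4, 12.0 and 12.5 scaled FPKM in FLM_G, 7.03, 6.39 and 6.51 in FLM_M and 8.81, 8.93 and 9.29 in BMM. The 3 groups did not overlap. Its log2 fold change of 0.72 for FLM_G over FLM_M (SE 0.07; limma, adjusted p = 2.08e-05) was the larger one, against 0.33 for FLM_G over BMM (SE 0.07; adjusted p = 0.00303), which turned to -0.05 and was not called without scaling, and -0.39 for FLM_M over BMM (SE 0.07; adjusted p = 0.00221).

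Fasn, the synthase that assembles palmitate (chr11:120805846-120824547, with the promoter printed above), had 27.3, 28.5 and 28.6 scaled FPKM in FLM_G, 9.44, 7.60 and 7.40 in FLM_M and 9.50, 9.77 and 9.29 in BMM. FLM_G stood apart, while FLM_M and BMM overlapped. The log2 fold change was 1.47 for FLM_G over BMM (SE 0.08; limma, adjusted p = 4.14e-07) and 1.68 for FLM_G over FLM_M (SE 0.08; adjusted p = 1.47e-07). The difference of -0.21 between FLM_M and BMM did not pass (SE 0.08; adjusted p = 0.0674), and without FLM_M replicate 1 it was -0.31 and passed. Acly, which makes cytosolic acetyl-CoA from citrate, averaged 49.0 ± 2.35 scaled FPKM in FLM_G, 19.8 ± 2.2 in FLM_M and 27.1 ± 1.6 in BMM, and Acaca, the carboxylase that makes malonyl-CoA, 3.62 ± 0.14 in FLM_G, 1.25 ± 0.19 in FLM_M and 1.48 ± 0.086 in BMM (SD, n = 3 each). Both were called higher in FLM_G than in either other culture. Of the 100-base words of Acaca, 23.7% occur in transcripts of other genes, chiefly Gm5182, so its level is uncertain.

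The stearoyl-CoA desaturases, which put a double bond into saturated fatty acids, differed widely between the cultures. Scd1 (chr19:44394455-44407879) had 15.9, 15.1 and 14.3 scaled FPKM in FLM_G, was listed at 0 in all 3 libraries of FLM_M and had 0.180, 0.108 and 0.152 in BMM. Its neighbour Scd2 (chr19:44293674-44306864) had 34.7, 34.8 and 32.05 in FLM_G, 0.00462, 0.0206 and 0.0135 in FLM_M and 7.99, 8.02 and 7.75 in BMM. At the estimated depths the Scd2 values of FLM_M stand for 1.01, 3.95 and 2.97 reads, against 1504, 1500 and 1592 reads in BMM. Scd2 thus separated all 3 cultures, and Scd1 was near or at 0 outside FLM_G. The log2 fold change of Scd2 was 1.97 for FLM_G over BMM (SE 0.05; limma, adjusted p = 3.03e-09) and -3.14 for FLM_M over BMM (SE 0.05; adjusted p = 8.99e-10); with a pseudocount of 0.1 the second was -6.15, since the size of a change to almost 0 is set by the pseudocount. Scd1 made up 30.9 ± 0.63% of the pair's sum in FLM_G and 1.82 ± 0.44% in BMM (SD, n = 3 each). The difference of -0.20 in Scd1 between FLM_M and BMM was called (adjusted p = 0.0156), but not without FLM_M replicate 3, BMM replicate 1 or BMM replicate 3. Scd1 shared 2.58% of its 100-base words with other transcripts, among them Scd2 and Scd3.

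The front-end desaturases Fads1 and Fads2, which make polyunsaturated fatty acids and lie next to each other on chromosome 19, were the 2 genes of this step called lower in FLM_G than in BMM. Fads1 averaged 18.7 ± 0.41 scaled FPKM in FLM_G, 25.1 ± 2.0 in FLM_M and 37.0 ± 0.92 in BMM, and Fads2 ranged from 2.61 to 3.54 in FLM_G, 0 to 0.0563 in FLM_M and 9.04 to 10.0 in BMM. The log2 fold change for FLM_G over BMM was -0.95 for Fads1 (SE 0.06; limma, adjusted p = 9.01e-07) and -1.35 for Fads2 (SE 0.09; adjusted p = 1.51e-06). Between FLM_G and FLM_M they differed in sign, at -0.40 for Fads1 (SE 0.06; adjusted p = 2.61e-04) and 2.03 for Fads2 (SE 0.09; adjusted p = 7.88e-08). Fads2 was listed at 0 in 2 libraries of FLM_M, and its difference from BMM of -3.38 (SE 0.09; adjusted p = 1.17e-08) was -6.38 with a pseudocount of 0.1. Within a library, Fads2 was 14.5 ± 1.7% of the pair's sum in FLM_G, 0.0797 ± 0.14% in FLM_M and 20.6 ± 1.2% in BMM.

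The elongases lengthen fatty acids by adding carbon pairs. Elovl5 averaged 44.8 ± 4.1 scaled FPKM in FLM_G, 27.6 ± 1.2 in FLM_M and 24.1 ± 0.63 in BMM, Elovl6 2.02 ± 0.27 in FLM_G, 0.664 ± 0.11 in FLM_M and 1.82 ± 0.090 in BMM, and Elovl1 37.5 ± 0.93 in FLM_G, 28.6 ± 5.0 in FLM_M and 28.6 ± 1.6 in BMM (SD, n = 3 each). Elovl6 was called lower in FLM_M than in BMM, at -0.76 on the log2 scale (SE 0.08; limma, adjusted p = 5.44e-05), whereas the difference between FLM_G and BMM did not pass. For FLM_G over FLM_M the Elovl6 log2 fold change was 0.86, and 1.47 with a pseudocount of 0.1. Elovl1 overlaps the end of Cdc20 on the other strand, which was at 8.55 FPKM in FLM_G, 26.4 in FLM_M and 40.2 in BMM before scaling. Lpcat3, which places polyunsaturated fatty acids into phospholipids (chr6:124663027-124704418), had 29.0, 28.5 and 27.6 scaled FPKM in FLM_G, 9.48, 9.46 and 9.59 in FLM_M and 10.3, 11.4 and 10.9 in BMM. FLM_G stood far above the other two cultures, by a log2 fold change of 1.31 over BMM (SE 0.05; adjusted p = 2.71e-08) and 1.48 over FLM_M (SE 0.05; adjusted p = 1.08e-08). The smaller difference of -0.17 between FLM_M and BMM (SE 0.05; adjusted p = 0.02) was not called without FLM_M replicate 3, BMM replicate 2 or BMM replicate 3, nor without scaling. Of the Lpcat3 words, 6.63% lie in the opposite-strand gene Emg1, at 28.9 FPKM in FLM_G, 51.6 in FLM_M and 44.9 in BMM.

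**Figure D4:**
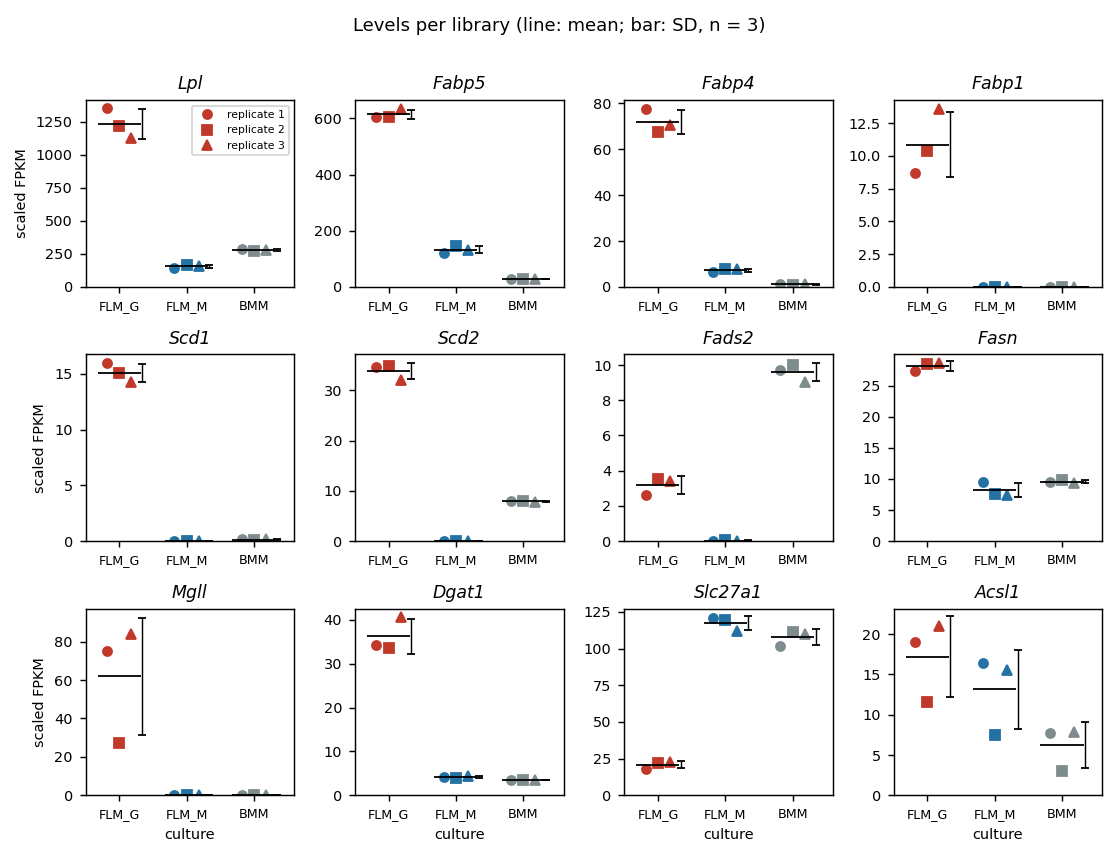
Scaled FPKM (y axis, linear, a scale for each gene) of 12 genes in the 3 libraries of FLM_G, FLM_M and BMM, in that order from the left. Points are libraries (circle, replicate 1; square, replicate 2; triangle, replicate 3), lines are means and bars the SD. Scd1 and Mgll sit at or near 0 in FLM_M and BMM, and Scd2 in FLM_M only. Slc27a1 is low in FLM_G, and replicate 2 of Acsl1 is lowest in each culture.

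Among the genes of storage and lipolysis, the droplet coat protein Plin2 (chr4:86648386-86670060), a usual marker of lipid loading, hardly differed. It had 142, 154 and 161 scaled FPKM in FLM_G, 136, 142 and 137 in FLM_M and 141, 141 and 139 in BMM. FLM_M and BMM overlapped, and FLM_G lay just above the highest of them. The log2 fold change of 0.12 for FLM_G over BMM did not pass (SE 0.05; limma, adjusted p = 0.0687) and was 0.17 and called without FLM_G replicate 1, while 0.14 for FLM_G over FLM_M passed (SE 0.05; adjusted p = 0.0395). That call was not given by 7 of the 9 fits that left out a library, and it turned to -0.35, called lower, without scaling. Plin3, a coat protein of early droplets, averaged 49.1 ± 2.5 scaled FPKM in FLM_G, 33.8 ± 1.6 in FLM_M and 28.2 ± 0.82 in BMM (SD, n = 3 each), and each culture differed from each other one, but without scaling the difference between FLM_G and FLM_M was 0.052 on the log2 scale and was not called. Dgat1, which makes triglyceride (chr15:76502015-76511953), had 34.2, 33.7 and 40.6 in FLM_G, 4.08, 3.91 and 4.31 in FLM_M and 3.54, 3.43 and 3.50 in BMM, a log2 fold change of 3.05 for FLM_G over BMM (SE 0.08; adjusted p = 2.03e-09) and 2.86 over FLM_M (SE 0.08; adjusted p = 2.55e-09). The Dgat1 groups of FLM_M and BMM did not overlap, but their difference of 0.18 did not pass (SE 0.08; adjusted p = 0.0789). Dgat2, the other enzyme of this step, was at most 0.198 scaled FPKM in any library.

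Droplet triglyceride is cut in turn by Pnpla2, Lipe and Mgll. Pnpla2, the first lipase (chr7:141455198-141460743), had 37.6, 47.8 and 53.8 scaled FPKM in FLM_G, 13.5, 13.0 and 13.6 in FLM_M and 15.8, 15.5 and 14.9 in BMM. FLM_G was above BMM by a log2 fold change of 1.52 (SE 0.11; limma, adjusted p = 2.88e-06), and the difference of -0.19 between FLM_M and BMM did not pass (SE 0.11; adjusted p = 0.203). Lipe, the hormone-sensitive lipase, ran the other way, at 2.36 ± 0.17 scaled FPKM in FLM_G, 4.94 ± 0.13 in FLM_M and 3.66 ± 0.12 in BMM (SD, n = 3 each), and passed in all comparisons. Mgll, which splits monoglycerides and the endocannabinoid 2-arachidonoylglycerol (chr6:88724412-88828360), had 75.0, 27.2 and 83.9 in FLM_G, 0.0154, 0 and 0 in FLM_M and 0, 0.0421 and 0.0490 in BMM. Its level passed 0.05 scaled FPKM only in FLM_G, where replicate 2 lay well below the other two. The deposited counts of Mgll, under the same doubt about strand, were 101, 107 and 50 in FLM_G and 0 in the other 6 libraries. Mgll made up 53.4 ± 16%, Pnpla2 44.3 ± 15% and Lipe 2.25 ± 0.69% of the lipase sum in FLM_G, against 73.0 ± 0.94% for Pnpla2 and 27.0 ± 0.93% for Lipe in FLM_M and 80.7 ± 0.99% and 19.2 ± 0.85% in BMM. By count, 4 of the 6 tested genes of this step were higher and 1 lower in FLM_G than in BMM, 5 higher and 1 lower than in FLM_M, and 2 higher and 0 lower in FLM_M than in BMM. Without scaling these were 4 and 2, 3 and 2, and 3 and 0. Mgll, tested only through FLM_G, is among the higher genes in both comparisons of FLM_G.

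Oxidation genes moved by smaller steps. In FLM_G 8 of 11 were higher than in BMM and 0 lower, and 10 were higher than in FLM_M and 0 lower, but without scaling 3 were higher and 2 lower than in BMM, and 5 higher and 1 lower than in FLM_M. In scaled FPKM + 1, none was at least 2-fold higher in FLM_G than in BMM, and 1, Hadhb, was so against FLM_M. Without the added 1, Ppargc1b was at 1.49 to 1.70 scaled FPKM in FLM_G and 0.629 to 0.674 in BMM. In FLM_M 1 was higher and 4 lower than in BMM, or 1 and 3 without scaling. Cpt1a, which controls the entry of fatty acids into mitochondria (chr19:3322334-3385733), had 32.7, 32.8 and 33.8 scaled FPKM in FLM_G, 19.3, 16.8 and 17.5 in FLM_M and 32.1, 31.2 and 30.2 in BMM. FLM_M was below both other cultures, with a log2 fold change of -0.77 against BMM (SE 0.06; limma, adjusted p = 6.91e-06), and FLM_G was above FLM_M by 0.86 (SE 0.06; adjusted p = 1.21e-06). FLM_G and BMM did not overlap, but their difference of 0.08 did not pass (SE 0.06; adjusted p = 0.21) and was -0.33 without scaling. Of the other parts of the carnitine shuttle, Cpt2 averaged 8.53 ± 1.2 scaled FPKM in FLM_G, 5.90 ± 0.58 in FLM_M and 7.23 ± 0.39 in BMM, and the carrier Slc25a20 5.32 ± 0.20 in FLM_G, 5.36 ± 0.019 in FLM_M and 5.10 ± 0.18 in BMM (SD, n = 3 each). Slc25a20 passed in no comparison with scaling, and was called lower in FLM_G than in both other cultures without it.

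The 4 acyl-CoA dehydrogenases catalyse the first oxidation of fatty acids of different chain length. Their summed level was 118 ± 1.9 scaled FPKM in FLM_G, 83.7 ± 1.8 in FLM_M and 81.5 ± 3.1 in BMM (SD, n = 3 each), and their proportions changed little. Acadl, the long-chain form, was 53.1 ± 3.1% of the sum in FLM_G, 58.3 ± 1.9% in FLM_M and 52.6 ± 1.3% in BMM, and Acadm, the medium-chain form, 13.3 ± 0.52% in FLM_G, 13.2 ± 0.57% in FLM_M and 15.5 ± 0.28% in BMM. All 4 were called higher in FLM_G than in BMM, by log2 fold changes of 0.30 for Acadm, 0.54 for Acadl, 0.52 for Acadvl and 0.67 for Acads (limma). Without scaling these were -0.10, 0.12, 0.11 and 0.28, and none was called. Against BMM, Acadl in FLM_M was higher by 0.18 (SE 0.06; adjusted p = 0.0457) and Acadm was lower, at -0.18 (SE 0.06; adjusted p = 0.0346), but 7 of the 9 fits that left out a library did not call Acadl and 5 did not call Acadm. Of the Acadvl words, 14.9% lie in the opposite-strand gene Dvl2, at 3.56 FPKM in FLM_G, 6.07 in FLM_M and 4.74 in BMM.

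Hadha and Hadhb, the subunits of the mitochondrial trifunctional protein, start 272 bases apart on opposite strands of chromosome 5 in RefSeq and changed alike. Hadhb (chr5:30155248-30184593) had 15.8, 13.6 and 11.5 scaled FPKM in FLM_G, 5.83, 5.36 and 5.52 in FLM_M and 6.90, 7.65 and 7.72 in BMM. Hadha was at 24.6 to 25.3 in FLM_G, 12.0 to 13.2 in FLM_M and 14.8 to 15.6 in BMM. The order of the cultures was the same for both genes, FLM_G highest and FLM_M lowest, without overlap. For FLM_G over FLM_M the log2 fold change was 0.94 for Hadha (SE 0.05; limma, adjusted p = 2.08e-07) and 1.15 for Hadhb (SE 0.10; adjusted p = 9.75e-06), and for FLM_M over BMM -0.25 (SE 0.05; adjusted p = 0.003) and -0.36 (SE 0.10; adjusted p = 0.0198). That last call was not given without FLM_M replicate 2 or 3, or BMM replicate 2 or 3, and 14.8% of the Hadhb words occur in the pseudogenes Gm13910 and Gm9108. The ratio of the Hadha level to the Hadhb level was 1.87 ± 0.30 in FLM_G, 2.27 ± 0.025 in FLM_M and 2.05 ± 0.19 in BMM (SD, n = 3 each). Etfdh, which passes electrons from these reactions to ubiquinone, averaged 6.75 ± 0.46 scaled FPKM in FLM_G, 4.94 ± 0.27 in FLM_M and 4.62 ± 0.22 in BMM, and Ppargc1b, a coactivator of mitochondrial genes, 1.57 ± 0.11 in FLM_G, 0.894 ± 0.26 in FLM_M and 0.646 ± 0.025 in BMM. Etfdh overlaps 4930579G24Rik on the other strand, which was at 3.49 FPKM in FLM_G, 13.4 in FLM_M and 9.72 in BMM before scaling.

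The rest of the pathway was described by 6 further lists, counted with the same calls and to be read against the same shares of all genes (33.8% and 34.1% for FLM_G over BMM, 35.5% and 35.1% for FLM_G over FLM_M, 22.7% and 21.9% for FLM_M over BMM). Their counts without scaling are to be read against the numbers of all genes without scaling given above. Across these lists, 8 genes passed the filter of 1 FPKM only through FLM_G, so that their higher calls there follow from the filter. They were Gpat3, Lpin1, Cideb and Abhd6 in storage, Slc27a6 and Ffar4 in uptake, Elovl7 in synthesis and Hacl1 in the peroxisomal list. Among lipid transcription regulators, 12 of 16 tested were higher and 1 lower in FLM_G than in BMM, 11 higher and 1 lower than in FLM_M, and 2 higher and 5 lower in FLM_M than in BMM (limma), the last pair near the shares of all genes; without scaling the counts were 7 and 3, 9 and 5, and 3 and 5. Pparg, the nuclear receptor of fat storage, was at 64.6 to 72.7 scaled FPKM in FLM_G, 9.60 to 9.93 in FLM_M and 9.78 to 10.8 in BMM, a log2 fold change of 2.61 for FLM_G over BMM (SE 0.06; adjusted p = 1.06e-09), with overlap of FLM_M and BMM. Nr1h3, which encodes LXRα, was at 21.5 to 28.1 in FLM_G, 0.0840 to 0.163 in FLM_M and 4.15 to 4.36 in BMM, so that like Scd2 and Fads2 it was close to 0 in FLM_M. The log2 fold change of Nr1h3 was 2.30 for FLM_G over BMM (SE 0.09; adjusted p = 3.84e-08) and -2.22 for FLM_M over BMM (SE 0.09; adjusted p = 1.41e-07). Ppard averaged 13.9 ± 0.82 in FLM_G, 1.81 ± 0.19 in FLM_M and 4.72 ± 0.31 in BMM (SD, n = 3 each), and its relative Ppara was listed at 0 in all 9 libraries. Srebf2, the SREBP of cholesterol synthesis, averaged 36.8 ± 3.3 in FLM_G, 16.3 ± 2.2 in FLM_M and 32.4 ± 0.77 in BMM, and Insig1, which restrains SREBP processing, 79.7 ± 4.7 in FLM_G, 9.94 ± 0.37 in FLM_M and 23.2 ± 0.29 in BMM. Rxra, the partner of PPAR and LXR receptors, averaged 42.8 ± 2.9 in FLM_G, 17.0 ± 1.5 in FLM_M and 11.9 ± 0.13 in BMM, and the factor Klf4 60.8 ± 3.0 in FLM_G, 4.55 ± 0.38 in FLM_M and 6.18 ± 0.46 in BMM.

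Peroxisomes shorten very long and branched fatty acids, and of the 18 tested genes of this list 14 were higher and 0 lower in FLM_G than in BMM, 13 higher and 4 lower than in FLM_M, and 10 higher and 2 lower in FLM_M than in BMM. Without Hacl1 the first 2 counts of higher genes were 13 and 12 of 17. Without scaling the counts were 10 and 3, 11 and 5, and 11 and 1. Abcd2, a transporter of very long-chain acyl-CoA, averaged 22.0 ± 1.5 scaled FPKM in FLM_G, 2.19 ± 0.17 in FLM_M and 1.55 ± 0.069 in BMM, and Pex11a, a factor of peroxisome division, 18.6 ± 1.1 in FLM_G, 2.98 ± 0.073 in FLM_M and 1.76 ± 0.28 in BMM (SD, n = 3 each). The thiolase Acaa1b averaged 20.5 ± 1.4 in FLM_G, 2.38 ± 0.59 in FLM_M and 2.44 ± 0.49 in BMM. Phyh, which starts the breakdown of phytanic acid, was instead highest in FLM_M, with 21.7 ± 1.5 in FLM_G, 35.3 ± 2.7 in FLM_M and 22.1 ± 0.56 in BMM. Of 15 other mitochondrial oxidation genes, 7 were higher and 1 lower in FLM_G than in BMM, 9 and 2 than in FLM_M, and 2 and 3 in FLM_M against BMM, and without scaling 5 and 4, 6 and 5, and 3 and 1. The thiolase Acaa2 averaged 64.0 ± 4.8 scaled FPKM in FLM_G, 16.1 ± 1.1 in FLM_M and 16.4 ± 0.71 in BMM, and Etfb, an electron carrier subunit, 120.3 ± 0.96 in FLM_G, 40.9 ± 5.5 in FLM_M and 39.2 ± 0.55 in BMM.

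Of 13 other uptake and activation genes tested, 9 were higher and 3 lower in FLM_G than in BMM, 9 and 2 than in FLM_M, and 3 and 5 in FLM_M against BMM. Without Slc27a6 and Ffar4, 7 of 11 were higher in FLM_G than in BMM and 7 than in FLM_M. Without scaling these counts were 8 and 4, 7 and 5, and 4 and 4. Cd36, the scavenger receptor for fatty acids, was lower in FLM_G, at 101 to 162 scaled FPKM, and in FLM_M, at 138 to 148, than in BMM, at 188 to 205, with log2 fold changes of -0.54 and -0.44 (SE 0.15 each; limma, adjusted p = 0.0125 and 0.0418). The long-chain fatty acid receptor Ffar4 was at 13.9 to 15.9 in FLM_G and listed at 0 in all libraries of FLM_M and BMM. Fabp7, a binding protein outside the 43 genes, averaged 23.6 ± 1.3 in FLM_G, 3.16 ± 0.47 in FLM_M and 14.0 ± 1.4 in BMM (SD, n = 3 each). The thioesterase Acot7 was lower in FLM_G, at 15.7 ± 1.0, against 38.3 ± 2.2 in FLM_M and 40.6 ± 0.76 in BMM. In other synthesis genes the counts were 6 higher and 5 lower of 12 for FLM_G against BMM, 6 and 4 against FLM_M, and 2 and 7 for FLM_M against BMM, and without scaling 2 and 7, 5 and 5, and 2 and 4. Without Elovl7, 5 of 11 were higher in FLM_G than in BMM and 5 than in FLM_M. The citrate carrier Slc25a1 averaged 42.3 ± 3.3 in FLM_G, 12.8 ± 0.56 in FLM_M and 19.4 ± 0.62 in BMM. In other storage and lipolysis genes the counts were 8 and 4 of 16, 8 and 5, and 3 and 5, and without scaling 8 and 7, 7 and 7, and 3 and 5. Without the 4 storage genes named above, 4 of 12 were higher and 4 lower in FLM_G than in BMM, and 4 higher and 5 lower than in FLM_M, which is close to the shares of all genes. Abhd5, the activator of Pnpla2, averaged 49.6 ± 1.4 in FLM_G, 18.02 ± 0.028 in FLM_M and 15.3 ± 0.86 in BMM, and Lipa, the lysosomal acid lipase, 731 ± 37 in FLM_G, 217 ± 14 in FLM_M and 419 ± 6.2 in BMM.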

How the data were processed

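The 9 libraries were made with a stranded poly(A) kit and read for 101 cycles from 1 end, per the labels' protocols. The submitters' processing notes name HISAT2, StringTie, cutadapt, DESeq2, bcl2fastq and FastQC as tools and GRCm38 (mm10) as build, without roles or versions. The authors deposited FPKM per gene, which were the values analysed, and whole-number counts per gene. The counts summed to 782400 to 1170813 per library and, for 42 of the 43 genes, held under 5% of the reads implied by the FPKM (median 0.785%), so they served only for alternatives. Which strand was counted is not stated. The tests were planned on the FPKM with the counts taken to follow the opposite strand, which was not tested. Etfdh, the gene above 5% (6.22%), had counts of 15, 23 and 19 in FLM_G. Its counts were 58, 50 and 52 in FLM_M and 57, 39 and 49 in BMM. The gene 4930579G24Rik on its other strand was at 3.49 FPKM in FLM_G, 13.4 in FLM_M and 9.72 in BMM before scaling. Depth was estimated from FPKM steps: 28.9% to 34.3% of low values lay near whole reads, where even spread gives 4%.

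FPKM were scaled by unweighted TMM factors (edgeR 4.0.16). Genes reaching 1 FPKM in 3 or more libraries entered limma 3.58.1 (trend, R 4.3.3) as log2(FPKM + 1), with 1 mean per culture, all 9 libraries in the fit, and 6 residual degrees of freedom. An FPKM of 0 can be a failed estimate. The 43 genes, the further lists and the tests were chosen with earlier results of these data known. Values in every library are given for genes changed at least 2-fold with a mean of 10 or more in the higher culture, at most 4 per step and comparison, and for 10 genes fixed by name; from each further list at most 4 genes per comparison were named by size of change, plus 7 fixed by name. A few of these are not reported here. Gene positions are GENCODE M21 (GRCm38), and shared 100-base words were searched in its transcripts on both strands. The fit was tested on simulated data with 200 changed genes. Alternatives were other scalings, filters and pseudocounts, a fit of 6 libraries per comparison, blocking on replicate number, testing for changes beyond 1.5-fold, leaving out each library, and, on the counts, edgeR and DESeq2 1.42.0.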

Additional observations from a re-analysis of the deposited data

How the results depend on the processing

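Of 123 tests of single genes (41 genes in 3 comparisons), 79 kept direction and side of the threshold under all scalings, filters, pseudocounts, subsets, the replicate block and every left-out library, and 44 did not under at least 1. Over 2078 such values, 35 turned sign, and, counted separately, 54 lost the call, 26 gained one and 2 were called in the other direction. Without scaling 21 turned sign. For FLM_G over BMM the log2 fold changes without scaling were -0.11 (Slc27a4), -0.42 (Acsl5), -0.0532 (Srebf1), -0.032 (Elovl1), -0.18 (Elovl6), -0.30 (Plin2), -0.33 (Cpt1a), -0.17 (Cpt2), -0.30 (Slc25a20) and -0.10 (Acadm). For FLM_G over FLM_M they were -0.13 (Slc27a4), -0.0635 (Acsl1), -0.27 (Acsl5), -0.0793 (Elovl1), -0.35 (Plin2), -0.12 (Acadl) and -0.0318 (Etfdh), and for FLM_M over BMM 0.0171 (Slc27a4), 0.0539 (Acsl3), 0.0474 (Elovl1) and 0.0449 (Plin2). Values near 0 also turned elsewhere. For FLM_G over BMM, upper-quartile scaling gave -0.063 for Acsl5 and -0.0042 for Slc25a20, and a fit of only the 6 libraries compared gave -0.0041 for Acsl5. For FLM_M over BMM, the filter of 5 FPKM gave 0.0085 for Acsl3. Leaving out 1 library gave -0.0239 to 0.0323 for Acsl5 in FLM_G over BMM, -0.0295 to 0.0315 for Acsl3 in FLM_M over BMM, -0.15 to 0.0589 for Elovl1 in FLM_M over BMM and -0.0311 to 0.0143 for Slc25a20 in FLM_G over FLM_M. The cause of these turns beyond the scaling itself was not tested. Called counts changed by over 1.5 times in few settings. Without scaling, 10 members were lower in FLM_G than in BMM and 8 than in FLM_M, beside 6775 and 7075 of the 11952 genes tested. Against a 1.5-fold change, 17 were higher in FLM_G than in BMM, 3 were higher and 2 lower in FLM_M than in BMM, and 20 were higher and 3 lower in FLM_G than in FLM_M. On the sparse counts edgeR called 14 higher and 2 lower for FLM_G over BMM. It called 3 and 1 for FLM_M over BMM and 13 and 1 for FLM_G over FLM_M. DESeq2 called 13 and 2, 3 and 1, and 13 and 1. For FLM_G over BMM, 14 of the 16 edgeR calls and 14 of the 15 DESeq2 calls matched a call on the FPKM in gene and direction. For FLM_M over BMM 3 of 4 did with either tool, and for FLM_G over FLM_M 14 of 14. The shares of all genes called against a 1.5-fold change or on the counts are not given here. Correlations of deviations between the same replicate numbers were small, at -0.077 to 0.090. For FLM_G against BMM they were 0.053 to 0.090, against -0.051 to -0.023 between different numbers, so each library was closest to its own number. In the other comparisons not every library was, and the numbers were not taken to pair the samples. With the replicate block the counts were 29 and 6, 7 and 14, and 34 and 5, the same numbers as without, but not the same genes: Acsl1 gained a call in FLM_M over BMM (0.99) and in FLM_G over FLM_M (0.39), while Acadl lost its call in FLM_M over BMM (0.18) and Plin2 in FLM_G over FLM_M (0.14). The low depth of the counts and the doubt about their strand limit the edgeR and DESeq2 values.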
